A study of Mus musculus with 12 samples.

Results

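The comparison described here sets mouse testes in which lncRNA8276 was knocked down (KD) against the control group 3NC, over every gene of the deposited table. Of the 12 RNA-seq libraries of the series it compares 6, 3 from KD and 3 from 3NC. The other 6 libraries belong to the control group 5NC and to the overexpression group OV. They entered the fit that estimated the spread between libraries, and so bear on each SE and p-value. Otherwise they show levels, and 5NC was also set against KD as another control. All 4 groups are whole testes of F0 mice of a strain written as IRC mouse, and a virus carrying an inhibitor or a source of lncRNA8276 was given to the testes of KD and OV. The labels do not say what 3NC and 5NC stand for. 3NC was taken as the control of KD because the design statement names them side by side. The vector, its promoter, the testis cells it reached, the age of the mice and the time after delivery are unknown here. Whether the 3 samples of a group are 3 animals is not stated either, so p-values reflect only sample-to-sample spread, which may be technical.

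No symbol of the table matches lncRNA8276, so its own level, the check of the knockdown, was not analysed here. A testis holds germ cells at all stages of sperm formation, Sertoli cells that nurse them, Leydig cells that make testosterone from cholesterol, and the peritubular, vascular and immune cells around the tubules. Long noncoding RNAs are transcripts without a known protein product, and some of them act on the expression of other genes. Early-response genes, to which several of the genes below belong, are switched on within minutes of a growth factor, cytokine or stress signal, and many of their products feed back on the ERK and JAK-STAT pathways that switched them on.

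Libraries held between 15448442 and 16355720 estimated reads, and 16320 of 20718 genes passed the filter on low counts. Levels are given as CPM, a count divided by the scaled total of its library, in the order of replicates 1, 2 and 3. Of the tissue's defining markers, the 22 of the list for elongating spermatids summed to 31105 to 38824 CPM per library and the 18 of the Leydig cell list to 2130 to 3232 CPM. Epididymis markers summed to 6.94 to 17.6 CPM. One library stood apart: 3NC replicate 2 had a score of 46.3 on the first principal component of the 6 libraries (35.2% of the variance), against -16.7 to -0.7 for the other 5, and its counts differed from those of 3NC replicates 1 and 3 with a chi-square per degree of freedom of 18.68 and 21.31, against 2.93 to 3.86 for the other pairs within a group. Results that rest on it are given with and without it.

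Knockdown testes differed from 3NC testes in a small number of genes, most of them lower. Medag, Myc, Errfi1, Socs3, Ccl7, Insig1, Itga5 and Kitl were among those that fell and Txnip among those that rose. Here and below, fell and rose mean lower or higher in KD than in 3NC, and which group moved cannot be told apart. For the other control, 5NC minus 3NC, the log2 difference was -3.10 for Medag, -3.37 for Myc, -1.76 for Errfi1 and 1.04 for Txnip. With edgeR's quasi-likelihood test and a Benjamini-Hochberg adjusted p under 0.05, 29 genes were called, or 0.178% of the genes tested. Of these, 25 fell in KD (0.153% of the genes tested) and 4 rose (0.0245%), and below a gene is termed called by this test where no other tool is named. On the same counts DESeq2 called 71 genes and limma voom 106. At an unadjusted p under 0.05, 566 genes were lower in KD (3.47%) and 413 higher (2.53%). The median log2 fold change over all genes was 0.00, and 8238 of the 16320 had lower fitted values in KD. In whole testis, fewer cells of a type and less RNA per cell cannot be told apart, which holds for every gene below.

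The number of called genes depended on single libraries. It was 15, 12 and 22 without 3NC replicates 1, 2 and 3, and 12, 10 and 10 without KD replicates 1, 2 and 3. Medag, Trib1, Sema4b, Insig1, Errfi1, Ifrd1, Ccl7, Myc and Ugdh, 9 of the 29, were called whichever of the 6 libraries was left out. For the other 20 genes the adjusted p passed 0.05 without at least 1 library, while their fold changes kept their sign. The 4 genes that rose are all among these 20, and none of them was called without 3NC replicate 1, 3NC replicate 2, KD replicate 1 or KD replicate 2.

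**Figure D1:**
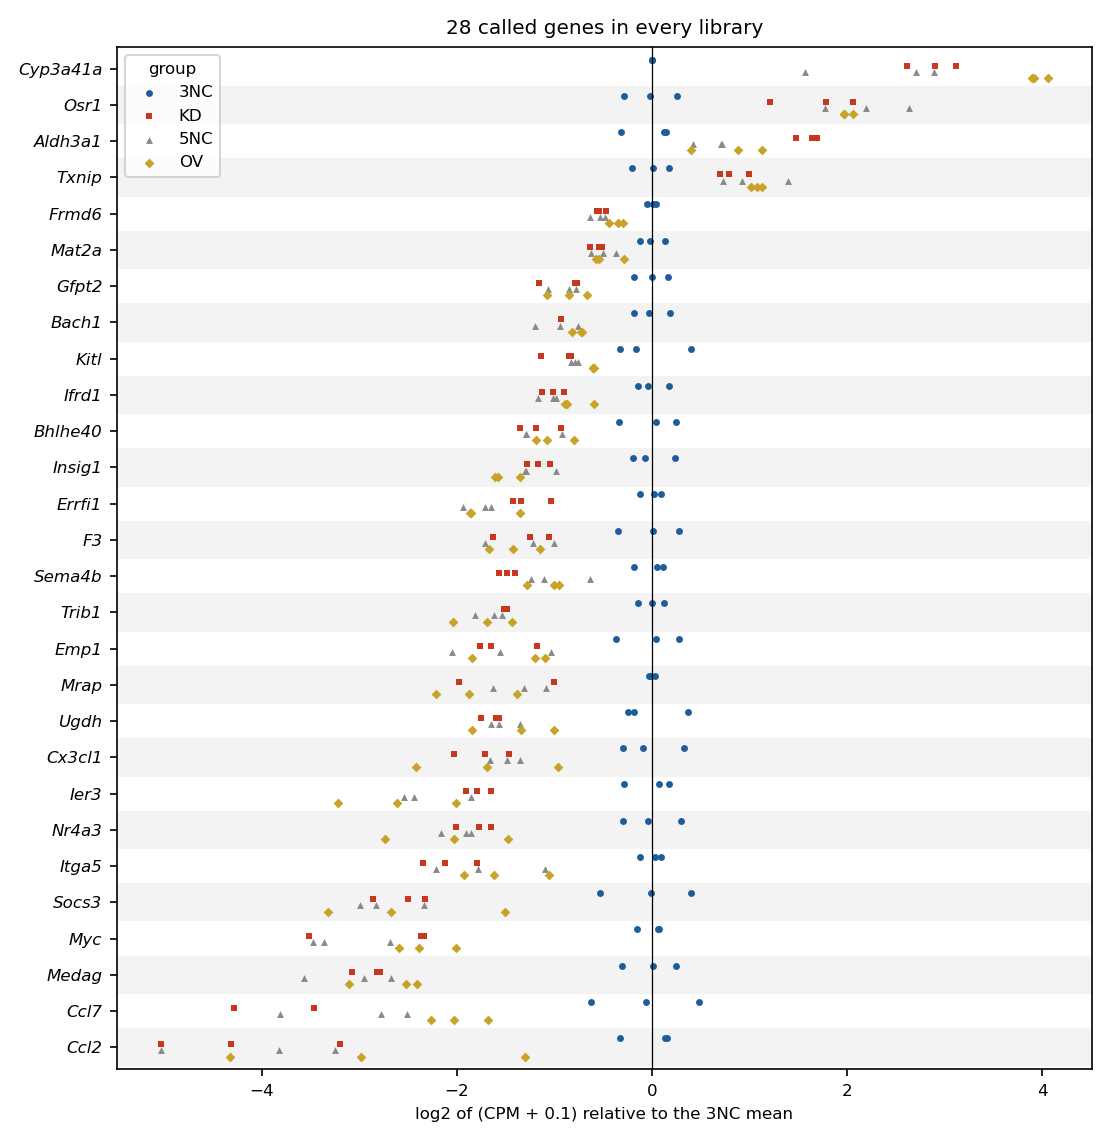
Levels of 28 of the 29 called genes in each of the 12 libraries, as log2 of CPM plus 0.1 relative to the mean of 3NC (vertical line), sorted by the difference between KD and 3NC. Each point is 1 library of 3NC (circles), KD (squares), 5NC (triangles) or OV (diamonds). KD and 3NC do not overlap for any gene drawn, but the genes were chosen by this same comparison, so this adds no support. 5NC and OV mostly lie on the side of KD.

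Promoter sequence was looked at for the called genes, which were chosen by this same comparison. RefSeq (GRCm38.p6) held a window around the start of transcription, 250 bases before it and 50 after, for 20 of the 29 called genes, 18 of them lower in KD. Trib1, Ccl7, Myc, Bhlhe40, Mrap, Ccl2, Aldh3a1 and Osr1 are among the 9 without one. Where a gene had several windows the most upstream one was used. For Medag both windows of the table lie inside the gene span given below, so the one shown precedes an internal start, while those of Insig1, Ifrd1 and Txnip adjoin the start of the gene. Below are the 250 bases before that start of Medag, the called gene of smallest p, of Insig1 and Ifrd1, with the most motif matches among the 6 lower genes of smallest p with a window, and of Txnip, which rose. They run 5′ to 3′ in the direction of the gene, and capitals mark matches to the motifs searched. The windows are chr5:149411499-149411748 (plus strand), chr5:28071162-28071411 (plus strand), chr12:40223190-40223439 (minus strand) and chr3:96557707-96557956 (plus strand).
Medag: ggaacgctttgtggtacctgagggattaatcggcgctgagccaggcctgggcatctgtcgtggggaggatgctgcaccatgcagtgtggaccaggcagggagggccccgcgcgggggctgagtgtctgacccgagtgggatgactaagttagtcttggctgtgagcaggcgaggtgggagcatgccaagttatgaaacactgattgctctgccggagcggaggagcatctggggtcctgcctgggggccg
Insig1: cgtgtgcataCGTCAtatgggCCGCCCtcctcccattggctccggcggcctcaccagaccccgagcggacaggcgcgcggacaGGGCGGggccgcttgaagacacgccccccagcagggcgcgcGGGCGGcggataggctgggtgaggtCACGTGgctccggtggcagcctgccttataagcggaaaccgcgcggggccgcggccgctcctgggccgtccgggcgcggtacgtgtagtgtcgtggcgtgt
Ifrd1: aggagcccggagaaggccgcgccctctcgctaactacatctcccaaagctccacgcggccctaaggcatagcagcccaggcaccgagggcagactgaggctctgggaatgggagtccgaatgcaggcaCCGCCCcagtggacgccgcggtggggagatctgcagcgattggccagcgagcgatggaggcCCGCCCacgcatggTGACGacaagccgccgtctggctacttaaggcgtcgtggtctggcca
Txnip: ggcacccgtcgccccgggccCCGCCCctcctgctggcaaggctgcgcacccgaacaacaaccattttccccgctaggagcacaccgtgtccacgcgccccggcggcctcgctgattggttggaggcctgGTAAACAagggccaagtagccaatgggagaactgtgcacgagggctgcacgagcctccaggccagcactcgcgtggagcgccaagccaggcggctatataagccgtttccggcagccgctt

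The motifs were searched as exact letters on both strands: TATA box (TATAAA), cyclic AMP element core (TGACG), AP-1 site (TGANTCA), STAT element (TTCNNNGAA), E-box (CACGTG), GC box (GGGCGG), FOXO site (GTAAACA), CArG box and NF-kB site. Insig1 has a cyclic AMP element core 240 to 236 bases before its start, an E-box at 101 to 96 and 3 GC boxes. Ifrd1 has a cyclic AMP element core 47 to 43 bases before its start and 2 GC boxes. Txnip has a FOXO site 121 to 115 bases before its start and 1 GC box, and the Medag window has no match. Over the whole 300-base windows, a GC box stood in 16 of the 18 genes lower in KD (88.9%), in 57.3% of the 12905 tested genes with a window and in 35.9% of all 27025 windows. An AP-1 site stood in 3 of the 18, Emp1, F3 and Gfpt2 (16.7%), against 5.3% of tested genes and 7.9% of all windows. The TATA box was in 4 of 18 (22.2%, against 7.9% and 14.2%), the cyclic AMP element core in 3 (16.7%, against 28.1% and 20.9%), and the CArG box in 0 (against 1.3% and 1.6%). The STAT element, E-box, FOXO site and NF-kB site were in 2 of 18 each (11.1%), against 7.1%, 9.4%, 2.6% and 5.0% of tested genes and 8.4%, 7.2%, 3.5% and 4.3% of all windows. Such matches describe these letters and are not known binding sites.

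Medag, which promotes the formation of fat cells, fell most clearly (gene 70717, mm10 chromosome 5, 149367641 to 149431723). It stood at 12.1, 14.2 and 9.71 CPM in 3NC and at 1.34, 1.62 and 1.66 CPM in KD. All 3 KD libraries were far below the lowest 3NC library. The log2 fold change was -2.96 ± 0.25 (SE), a 7.79-fold lower level, with an adjusted p of 0.000129 by edgeR's quasi-likelihood test. Medag was the only called gene among 17 tested genes of fat cell formation, whose median log2 fold change was 0.06. Cebpa, a master regulator of fat cells, had 2.80 CPM in 3NC and 4.6 in KD (log2 difference 0.71) and was not called. Trib1, a pseudokinase that directs C/EBP factors to degradation, fell beside it (chromosome 15, 59648654 to 59657099). It had 13.7, 14.9 and 12.4 CPM in 3NC and 4.84, 4.73 and 4.72 in KD. The SD of its KD libraries was 0.0694 CPM, and the log2 fold change was -1.52 ± 0.16, with an edgeR adjusted p of 0.00081.

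Among early-response transcription factors, Myc and Nr4a3 fell. Myc, a driver of cell growth (chromosome 15, 61985341 to 61990361), had 4.88, 4.93 and 4.20 CPM in 3NC and 0.828, 0.842 and 0.319 CPM in KD. Its 3NC libraries were close to each other and all KD libraries were below 1 CPM, for a log2 fold change of -2.80 ± 0.32 and an edgeR adjusted p of 0.00083. Of the 20 tested genes of the MYC network, Myc alone was called, and the list's median was 0.04. Nr4a3, an orphan nuclear receptor (chromosome 4, 48045078 to 48086447), had 9.57, 14.5 and 11.5 CPM in 3NC and 3.70, 2.85 and 3.38 in KD. The groups did not overlap, with a log2 fold change of -1.84 ± 0.25 and an edgeR adjusted p of 0.00558, which became 0.0755 without KD replicate 2 and 0.0547 without KD replicate 3. Its relative Nr4a1 had 46.3 CPM in 3NC and 54.3 in KD and was not called. Ier3, which acts on survival under stress, had 6.36, 8.77 and 8.20 CPM in 3NC and 2.42, 2.01 and 2.17 in KD. It fell by 1.82 ± 0.26 on the log2 scale with an edgeR adjusted p of 0.00899, which became 0.052 without 3NC replicate 2 and 0.0607 to 0.0997 without any 1 KD library. Ifrd1, a transcriptional co-regulator induced by growth factors, had 37.8, 47.0 and 40.4 CPM in 3NC and 22.2, 20.6 and 19.1 in KD. Every KD library was below every 3NC library, and its log2 fold change was -1.02 ± 0.11 with an edgeR adjusted p of 0.00081.

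Other early-response genes were mixed. Of the 23 transcription factors of this kind 10 had lower and 13 higher fitted values in KD, with a median of 0.05 (12 lower and -0.03 without 3NC replicate 2), against 50.5% lower and a median of 0.00 over all genes. At an unadjusted p under 0.05, 8 of the 23 were lower and 2 higher, against 3.47% and 2.53% of all genes tested. DESeq2 and limma voom each called 4 lower and 1 higher. By edgeR 2 were called lower, against 0.153% of all genes tested. Of 19 early-response regulators, 12 were lower, 7 higher and 1 was called by edgeR, with 6 lower and 4 higher at an unadjusted p under 0.05. Some were lower, some level and some higher. Plk3, Maff, Egr2, Fosl2 and Klf6 had lower levels in KD without being called by edgeR. Plk3, a stress kinase, went from 2.27 ± 0.155 CPM (SD, n = 3) in 3NC to 0.640 ± 0.167 in KD, with an edgeR adjusted p of 0.059, and Maff, a small MAF factor, from 4.90 ± 0.321 to 1.84 ± 0.164, with 0.0644. Egr1, Btg2 and Zfp36 stood at like levels in both groups: Egr1, a zinc finger factor, had 54.1, 50.7 and 46.8 CPM in 3NC and 53.4, 52.4 and 50.3 in KD, a log2 difference of 0.04 ± 0.15. Fos, a subunit of AP-1, lay higher in KD. It had 3.73, 4.81 and 2.89 CPM in 3NC and 8.73, 18.3 and 10.5 CPM in KD. The groups did not overlap, but the KD libraries were widely spread, and the log2 difference of 1.71 ± 0.32 was not called (edgeR adjusted p 0.059), although DESeq2 and limma voom both called it, as they did Maff and Plk3. Cyr61 and Ctgf, secreted matrix proteins of the same family, had log2 differences of 1.29 ± 0.35 and 0.75 ± 0.18 and were not called by edgeR either (limma voom called Cyr61 and DESeq2 Ctgf). Egr1, Btg2, Zfp36, Nr4a1, Egr2, Fosl2, Klf6 and Cyr61 lie outside the rule for named genes and were chosen after their values were seen.

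**Figure D2:**
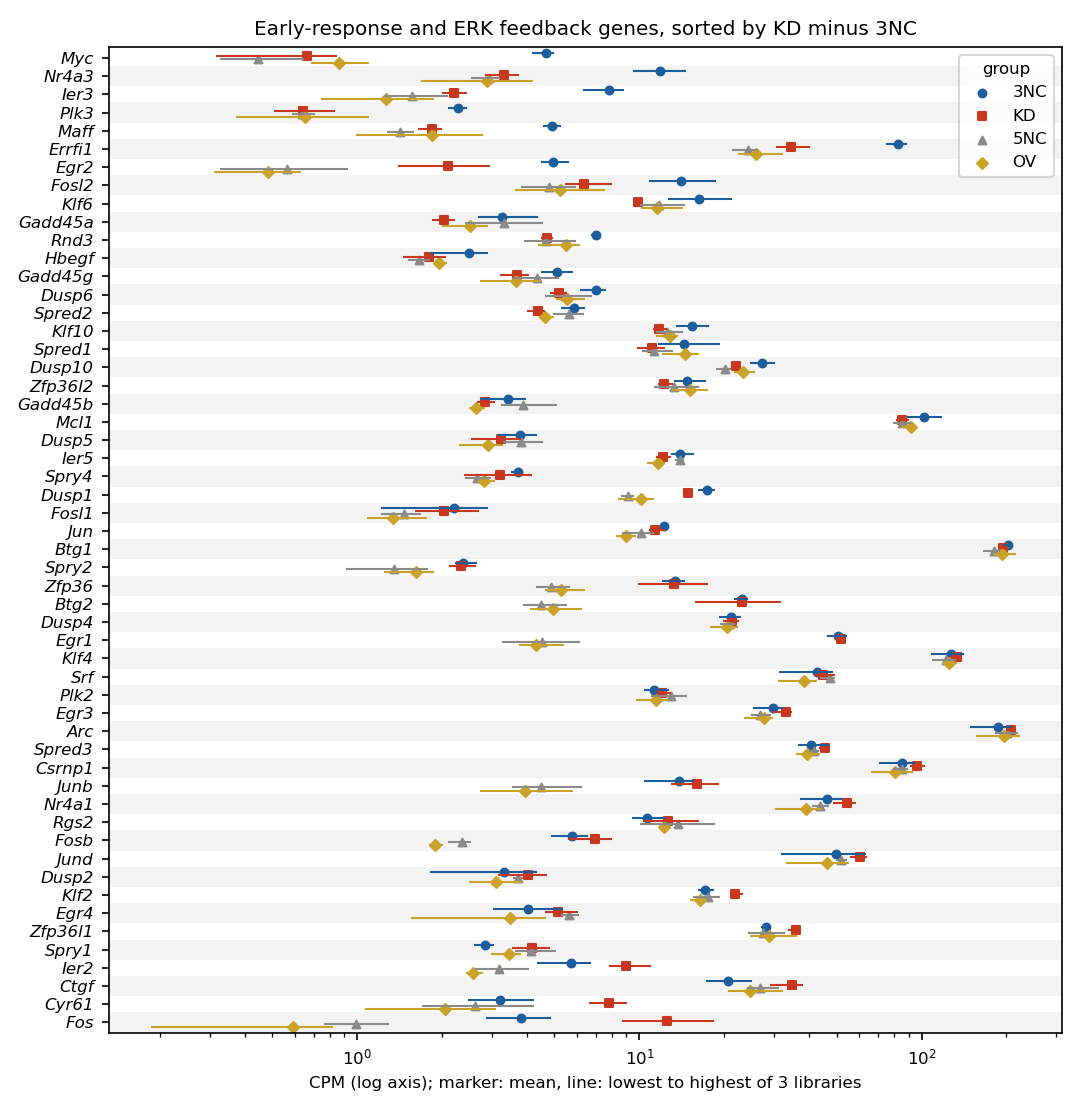
CPM (log axis) of early-response and ERK feedback genes with a mean of at least 2 CPM in 3NC or KD, sorted from lowest to highest KD minus 3NC. Markers are means of 3 libraries and lines run from the lowest to the highest library in 3NC (circles), KD (squares), 5NC (triangles) and OV (diamonds). Myc (4.67 against 0.663 CPM in 3NC and KD) is at the top, Egr1 (50.5 and 52.0 CPM) in the lower middle, and Fos (3.81 and 12.5 CPM) at the bottom.

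Errfi1 and Socs3, feedback inhibitors of growth factor and cytokine signalling, fell, and the other members of their lists were not called by edgeR, DESeq2 or limma voom. Errfi1, which binds and inhibits the EGF receptor kinase (chromosome 4, 150853796 to 150868889), had 83.5, 87.9 and 75.4 CPM in 3NC and 40, 32.4 and 30.7 in KD. Each KD library was well below the lowest 3NC library, with a log2 fold change of -1.26 ± 0.14 and an edgeR adjusted p of 0.00081. Of 16 tested ERK feedback genes 12 had lower fitted values in KD, with a median of -0.25, against 0.00 over all genes. Dusp10, a phosphatase of p38 and JNK kinases, had 27.3 CPM in 3NC and 21.9 in KD (log2 difference -0.31 ± 0.10), and Spry1, an inhibitor upstream of RAS, had 2.84 and 4.15 CPM (0.54 ± 0.19). Neither was called, and they differ in sign. Socs3, which shuts off JAK kinases at the IL-6 family receptor (chromosome 11, 117966079 to 117970336), had 7.52, 14.4 and 10.8 CPM in 3NC and 1.85, 1.42 and 2.10 in KD. The 3NC libraries were spread and replicate 2 was the highest of them, while the KD libraries were close together. The log2 fold change was -2.60 ± 0.38 with an edgeR adjusted p of 0.0136, which became 0.0603 without 3NC replicate 2 and 0.0883 to 0.145 without any 1 KD library. Over 27 tested genes of SOCS and IL-6 family signalling the median was -0.08, and Socs3 was the only one called. Osmr, the oncostatin M receptor, had 6.02 CPM in 3NC and 3.67 in KD and was not called (log2 difference -0.71 ± 0.24).

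Ccl7, Ccl2 and Cx3cl1, chemokines that draw monocytes, fell. Ccl7 (chromosome 11, 82045712 to 82047525) had 2.96, 4.38 and 1.97 CPM in 3NC and 0.191, 0.0648 and 0.191 in KD. It was present in every 3NC library and near the detection limit in KD, with 148 reads in 3NC and 7 in KD. The scaled read ratio was 21.0, with a 95% counting interval of 9.95 to 53.2, and the edgeR adjusted p was 0.00081. Ccl2, its neighbour on chromosome 11 (82035577 to 82037452) and like Ccl7 a ligand of the receptor CCR2, had 3.47, 3.53 and 2.49 CPM in 3NC and 0.0637, 0 and 0.255 in KD. Its 150 reads in 3NC stood against 5 in KD, a ratio of 29.8 (12.5 to 93.2). The edgeR adjusted p was 0.0366 and lay between 0.0792 and 0.303 when any 1 library was left out. Cx3cl1, the membrane-bound fractalkine, had 7.58, 10.2 and 6.56 CPM in 3NC and 1.91, 2.40 and 2.87 in KD. The groups were apart, with a log2 fold change of -1.76 ± 0.30 and an edgeR adjusted p of 0.0281, or 0.0408 to 0.227 when any 1 library was left out.

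These were the 3 genes called by each of the 3 tools among 21 tested chemokine ligands, of which 14 had lower fitted values in KD (median -0.33, or -0.24 without 3NC replicate 2). None of 11 tested chemokine receptors and none of 20 genes of NF-kB signalling was called (edgeR), and their medians were 0.19 and -0.08. At an unadjusted p under 0.05 these 2 lists had 0 and 4 genes lower in KD and 0 higher, and DESeq2 and limma voom called none of them. Vcam1, an adhesion molecule for leukocytes, had 90.1, 122 and 84.2 CPM in 3NC and 63.9, 80.1 and 57.8 in KD. The groups just failed to overlap and the log2 difference was -0.56 ± 0.22 (edgeR adjusted p 0.764). Macrophage markers beside these chemokines summed to 458 to 527 CPM in 3NC and 467 to 501 in KD, with all 20 detected, 14 lower (7 without 3NC replicate 2) and 6 higher in KD. None was called by edgeR or limma voom, 1 was lower at an unadjusted p under 0.05, and DESeq2 called Cd14 alone. Cd14, the macrophage co-receptor for endotoxin, had 4.69, 7.30 and 5.32 CPM in 3NC and 1.08, 1.23 and 1.47 in KD. It did not overlap between the groups but was not called by edgeR (log2 difference -2.19 ± 0.66, edgeR adjusted p 0.577). The part of macrophages in the chemokine levels was not tested.

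Most genes of cholesterol synthesis had lower fitted values in KD, and few were called by edgeR. Cells make more cholesterol when sterols are scarce, under the SREBP factors, and Leydig cells draw on it for testosterone. Insig1, the membrane protein that holds SREBP back when sterols are ample (chromosome 5, 28071412 to 28078662), had 51.5, 63.6 and 47.3 CPM in 3NC and 22.2, 26.2 and 24.0 in KD. The KD libraries were close to each other and all below the 3NC libraries, with a log2 fold change of -1.16 ± 0.13 and an edgeR adjusted p of 0.00081. Of 26 tested genes of the list, 23 had lower fitted values in KD, 2 were called by edgeR and 8 each by DESeq2 and limma voom, and 14 were lower at an unadjusted p under 0.05, against 3.47% of all genes. The list's median was -0.36, against 0.00 over all genes, and without 3NC replicate 2 it was -0.29 with 22 lower.

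Members that edgeR did not call included Stard4, a cholesterol carrier (20.7 ± 1.45 CPM in 3NC and 13.7 ± 1.21 in KD, SD, n = 3, log2 difference -0.60 ± 0.13), Hmgcs1, an early enzyme of the pathway (196 ± 33.0 and 131 ± 14.6 CPM, -0.59 ± 0.14), and, chosen after its values were seen, Srebf2, the SREBP that drives this pathway (37.1 ± 4.75 and 35.2 ± 0.384 CPM, -0.07 ± 0.11). Stard4 and Hmgcs1 lay lower in every KD library than in every 3NC library, and Srebf2 overlapped. The list's mean log2 level, relative to the 6 libraries, was 0.13, 0.24 and 0.17 in 3NC and -0.34, 0.01 and -0.21 in KD, so KD replicate 2 lay closest to the control.

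Leydig cell markers were lower in 2 of the 3 KD libraries. Of 18 tested markers 14 had lower fitted values in KD, with a median of -0.31 (-0.26 without 3NC replicate 2), and 1 was called by edgeR and 3 each by DESeq2 and limma voom. Hmgcs1 belongs to the cholesterol list as well. The list's mean level was 0.03, 0.27 and 0.11 in 3NC and -0.34, 0.14 and -0.21 in KD, and KD replicate 2 fell within the range of 3NC. The markers summed to 2765 to 3232 CPM in 3NC and 2130 to 3090 in KD. Fdx1, the ferredoxin that feeds electrons to steroid-making enzymes, had 52.3, 65.0 and 48.3 CPM in 3NC and 34.0, 40.7 and 34.2 in KD. It did not overlap and was called by DESeq2 and limma voom but not by edgeR (log2 difference -0.61 ± 0.13, edgeR adjusted p 0.116). Insl3, a hormone made by Leydig cells, had 759, 654 and 757 CPM in 3NC and 626, 900 and 696 in KD and overlapped. Star, which brings cholesterol into mitochondria, had 235, 389 and 274 CPM in 3NC and 140, 210 and 170 in KD (log2 difference -0.79 ± 0.34, edgeR adjusted p 0.764), and both were chosen after their values were seen. Mrap, which carries the ACTH receptor to the cell surface and is in none of the lists, fell. It had 14.6, 14.2 and 14 CPM in 3NC and 3.57, 7.06 and 3.57 in KD. KD replicate 2 was again the highest of its group, and the log2 fold change of -1.59 ± 0.25 had an edgeR adjusted p of 0.0205, between 0.00767 without KD replicate 2 and 0.181 without KD replicate 1. The part of Leydig cell number in these values was not tested.

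**Figure D3:**
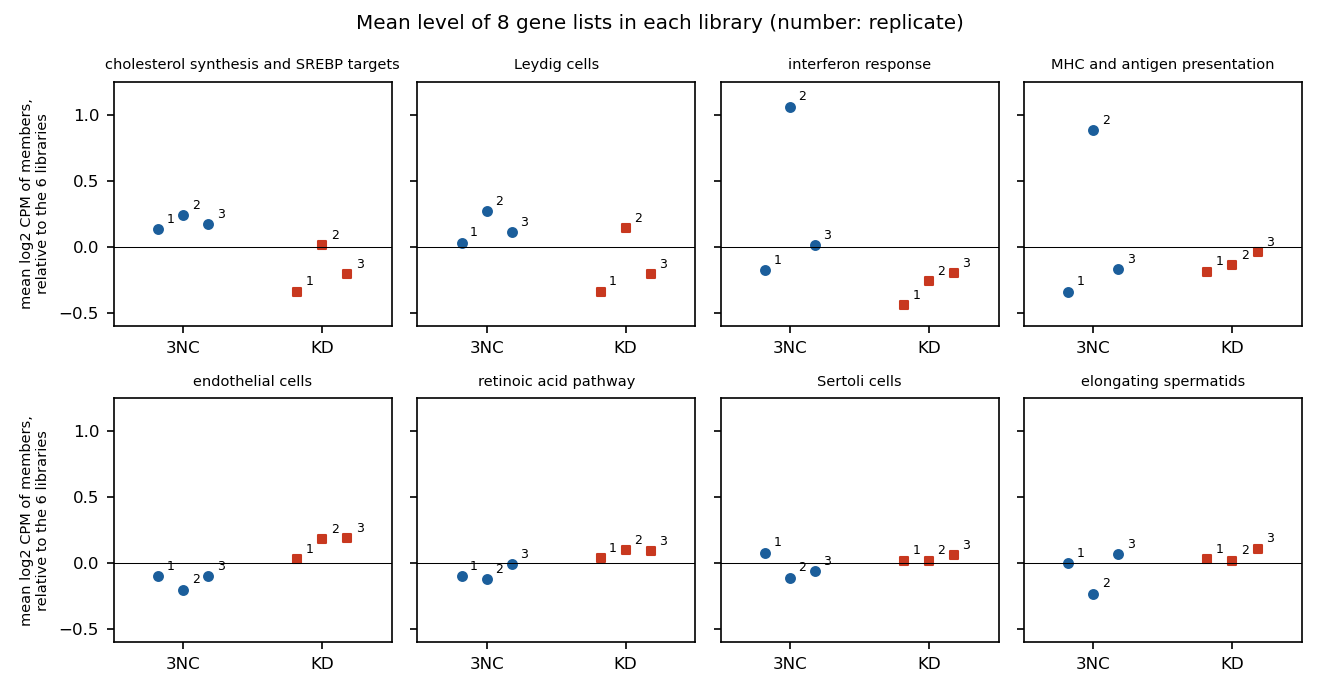
Mean log2 CPM of the tested members of 8 gene lists in each 3NC (circles) and KD (squares) library, relative to the mean of the 6 libraries, with the replicate number beside each point. The cholesterol list lies between 0.13 and 0.24 in 3NC and between -0.34 and 0.01 in KD, and the interferon list reaches 1.06 only in 3NC replicate 2.

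Itga5, Sema4b and Ugdh fell. Itga5, the integrin subunit that binds fibronectin (chromosome 15, 103344286 to 103366791), had 9.19, 7.91 and 8.8 CPM in 3NC and 2.42, 1.62 and 1.91 in KD. The groups were tight and far apart, with a log2 fold change of -2.12 ± 0.28 and an edgeR adjusted p of 0.0042 (0.0584 without KD replicate 2 and 0.0509 without KD replicate 3). It was the only gene called by edgeR and DESeq2 of 24 integrins, partners and fibronectin, whose median was 0.00, and limma voom also called Fermt2. Sema4b, a membrane semaphorin (chromosome 7, 80186870 to 80226646), had 27.8, 26.7 and 22.6 CPM in 3NC and 9.11, 9.65 and 8.61 in KD. The KD libraries differed by little, and the log2 fold change was -1.49 ± 0.16 with an edgeR adjusted p of 0.00081. Ugdh, which makes the UDP-glucuronate used for hyaluronan (chromosome 5, 65413207 to 65435842), had 11, 16.9 and 11.5 CPM in 3NC and 3.82, 4.34 and 4.27 in KD. It fell by 1.66 ± 0.22 on the log2 scale (edgeR adjusted p 0.00359).

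Ugdh was the only gene called by edgeR among 14 tested genes of hyaluronan synthesis and binding, 12 of which had lower fitted values in KD (median -0.24, or -0.14 without 3NC replicate 2). Tnfaip6, which remodels hyaluronan in inflammation, had 2.06, 2.86 and 1.77 CPM in 3NC and 0.701, 0.583 and 0.956 in KD. The groups did not overlap, and the log2 difference of -1.57 ± 0.39 was called by limma voom but not by edgeR (adjusted p 0.217) or DESeq2. Gfpt2, an enzyme of the hexosamine pathway, had 9.35 ± 1.16 CPM in 3NC and 4.98 ± 0.726 in KD. F3, the tissue factor that starts clotting, had 8.19 ± 1.75 and 3.29 ± 0.653 CPM, and Emp1, a membrane protein of epithelia, 10.4 ± 2.31 and 3.59 ± 0.824 CPM (SD, n = 3). Frmd6, a FERM-domain protein of the Hippo pathway, had 19.3 ± 0.633 and 13.4 ± 0.486 CPM. These 4 fell, with edgeR adjusted p of 0.0474 for Gfpt2, 0.0366 for F3, 0.0371 for Emp1 and 0.0474 for Frmd6. When any 1 library was left out the values reached 0.339, 0.22, 0.296 and 0.335.

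Kitl, the ligand that Sertoli cells present to the KIT receptor of spermatogonia, fell (chromosome 10, 100015615 to 100100416). It had 26.5, 43.8 and 29.7 CPM in 3NC and 15.1, 18.4 and 18.7 in KD. 3NC replicate 2 was well above the rest of its group, and without it the log2 fold change was -0.69 and the edgeR adjusted p 0.0258, against -0.94 ± 0.15 and 0.0229 with it. The call was lost without any 1 KD library (0.107 to 0.198) and in a fit of these 6 libraries alone (edgeR adjusted p 0.1). Kit itself had 26.6 CPM in 3NC and 33.7 in KD and was not called (log2 difference 0.34 ± 0.18). Csf1, a growth factor for macrophages and for the stem cell niche, had 14.5, 14.6 and 10.7 CPM in 3NC and 7.46, 9.26 and 8.35 in KD, with no overlap (log2 difference -0.67 ± 0.19), and was called by limma voom and not by edgeR or DESeq2. Sertoli cell markers as a list had 9 of 24 lower in KD and a median of 0.10, and Kitl was the only one called.

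Mat2a, Bach1 and Bhlhe40 fell too. Mat2a, which makes the methyl donor S-adenosylmethionine, had 180, 200 and 168 CPM in 3NC and 128, 126 and 118 in KD. It was the most highly expressed of the called genes per transcript length, at 68.2 FPKM in 3NC and 46.0 in KD. The log2 fold change of Mat2a was -0.56 ± 0.09 (edgeR adjusted p 0.0282, or 0.038 to 0.223 when any 1 library was left out). Bach1, the heme-sensing repressor of antioxidant genes, had 8.55, 9.92 and 7.68 CPM in 3NC and 4.52, 4.53 and 4.53 in KD. Its KD libraries were nearly equal, and it fell by 0.94 ± 0.15 on the log2 scale (edgeR adjusted p 0.0219, or 0.038 to 0.164 when any 1 library was left out). Hmox1, heme oxygenase and a known target of that repressor, had 20.2, 19.7 and 23.5 CPM in 3NC and 10.9, 11.3 and 11 in KD. It too lay lower in each KD library and was called by DESeq2 and limma voom, but not by edgeR (log2 difference -0.93 ± 0.21, edgeR adjusted p 0.145). Over 23 NRF2 and oxidative stress genes the median was -0.09, and 18 had lower fitted values. edgeR called Bach1 alone, and DESeq2 and limma voom Bach1, Hmox1 and Mt2. Bhlhe40, a repressor in the circadian clock, had 10, 15.1 and 13.1 CPM in 3NC and 6.63, 5.51 and 4.91 in KD, a log2 fold change of -1.16 ± 0.18 (edgeR adjusted p 0.0201, or 0.0101 to 0.166 when any 1 library was left out). The other 18 clock genes were not called, and the list's median was 0.00.

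**Figure D4:**
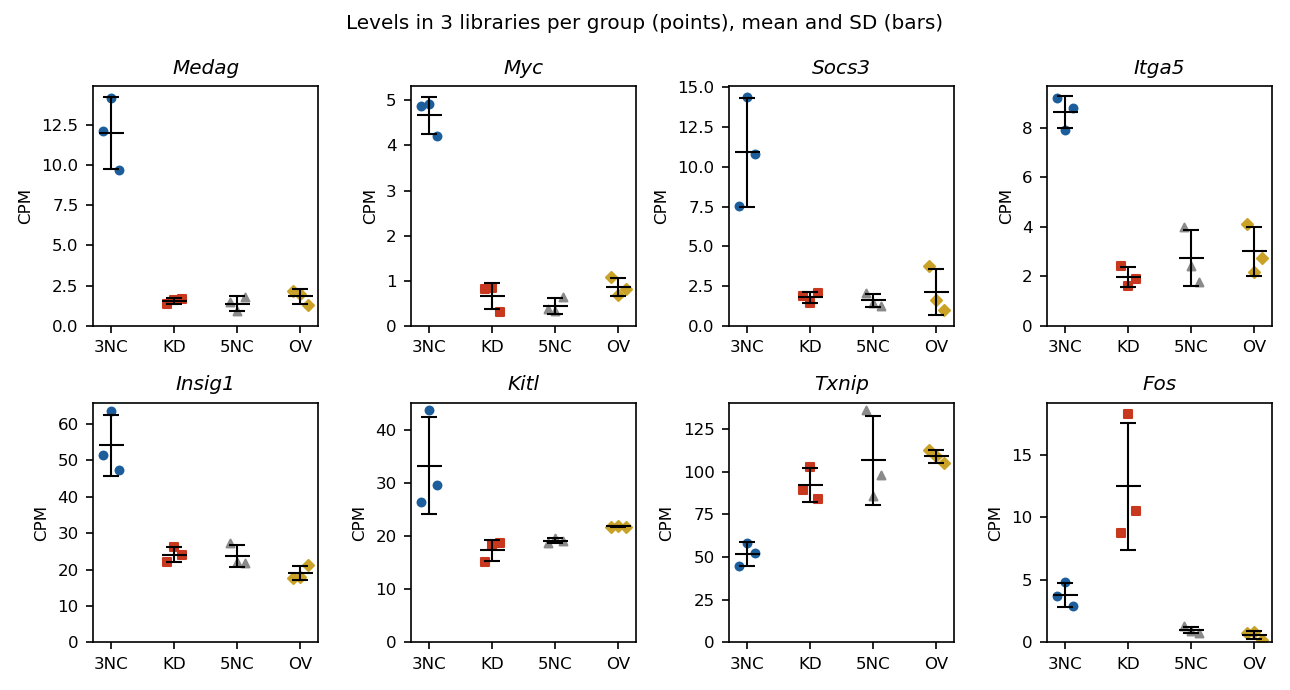
CPM of 8 genes in 3 libraries per group, with the mean (short line) and SD (bars). Medag, Myc, Socs3, Itga5, Insig1 and Kitl are high in 3NC and low in KD, 5NC and OV, Txnip is low in 3NC, and Fos is highest in KD (12.5 ± 5.07 CPM).

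The genes that rose were Txnip, Osr1, Aldh3a1 and Cyp3a41a. Txnip, which inhibits thioredoxin and glucose uptake (chromosome 3, 96557957 to 96561857), had 44.9, 58.4 and 52.1 CPM in 3NC and 89.3, 103 and 84.2 in KD. Every KD library was above every 3NC library, with a log2 fold change of 0.83 ± 0.15 and an edgeR adjusted p of 0.0434, between 0.124 and 0.227 when any 1 library was left out. Fbxo32, a ubiquitin ligase that FOXO factors are known to switch on as they do Txnip, had 0.900, 1.58 and 0.656 CPM in 3NC and 3.50, 3.30 and 2.42 in KD. It was not called by edgeR (log2 difference 1.54 ± 0.32, adjusted p 0.116) but by DESeq2 and limma voom, which also called Pdk4, another such gene, in the other direction (6.38 ± 1.54 CPM in 3NC and 2.67 ± 0.318 in KD, SD, n = 3). Of the 21 FOXO and glucocorticoid targets 15 had lower fitted values in KD.

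Osr1, a zinc finger factor of embryonic mesoderm, had 0.578, 0.365 and 0.459 CPM in 3NC and 1.85, 2.27 and 1.21 in KD. It rose by a log2 fold change of 1.91 ± 0.34 from 22 reads in all of 3NC to 83 in KD (edgeR adjusted p 0.0396, or 0.0492 to 0.24 when any 1 library was left out). Aldh3a1, an aldehyde dehydrogenase, had 0.450, 0.304 and 0.459 CPM in 3NC and 1.53, 1.30 and 1.47 in KD, with 19 and 67 reads. The log2 fold change was 1.81 ± 0.32 (edgeR adjusted p 0.0396, or 0.142 to 0.257 when any 1 library was left out). Cyp3a41a, a cytochrome P450 of the drug-metabolising CYP3A family, had no read in 3NC and 0.765, 0.648 and 0.510 CPM in KD. Against a floor of 3 reads over the 3NC group its 30 reads in KD were 10.1-fold higher. With no floor, the lower 95% counting limit of the read ratio was 7.69. The edgeR adjusted p was 0.0169, and 0.0486 to 0.0808 when any 1 library was left out. The CYP3A genes are near-identical copies, so its reads may be shared with a paralog, and the value is uncertain.

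Interferon and antigen presentation genes had lower means in KD, and most of the size of these differences came from 3NC replicate 2. Of 30 tested interferon response genes 27 had lower fitted values in KD and none was called by edgeR, DESeq2 or limma voom, with 4 lower at an unadjusted p under 0.05. The median was -0.78 with all libraries and -0.11, with 23 lower, without 3NC replicate 2. The list's mean level was -0.18, 1.06 and 0.01 in 3NC and -0.44, -0.26 and -0.20 in KD, so only replicate 2 of 3NC was far above KD. Gbp3, an interferon-induced GTPase, had 2.18, 10.6 and 2.56 CPM in 3NC and 1.66, 2.01 and 1.53 in KD. Irf9, the member of smallest p, was high in 3NC replicate 3 as well. It had 4.63, 10.9 and 8.99 CPM in 3NC and 3.70, 4.73 and 5.04 in KD, and overlapped. For 19 MHC and antigen presentation genes the median went from -0.46 to 0.06 without that library, and the number with lower fitted values from 16 to 4. None was called by edgeR, DESeq2 or limma voom or had an unadjusted p under 0.05. Psmb8, an immunoproteasome subunit, had 1.54, 7.43 and 1.58 CPM in 3NC and 1.53, 2.01 and 1.79 in KD, and its log2 difference turned from -1.0 to 0.19 without that library.

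Most vascular markers and most genes of the retinoic acid pathway leaned the other way. Of 18 tested endothelial markers 16 had higher fitted values in KD and 6 had an unadjusted p under 0.05 (2.53% of all genes were that much higher). None was called by edgeR, DESeq2 or limma voom, and the median was 0.22, or 0.28 without 3NC replicate 2, when 4 were lower. Cldn5, a tight junction protein of vessels, had 5.59, 3.83 and 4.27 CPM in 3NC and 6.18, 7.71 and 7.84 in KD, a log2 difference of 0.67 ± 0.16 (edgeR adjusted p 0.21). Pecam1 and Cdh5, defining markers chosen after their values were seen, differed by 0.07 ± 0.27 and 0.09 ± 0.19 and overlapped. The 5 tested erythrocyte genes had a median of 0.80, and none was called by the 3 tools or had an unadjusted p under 0.05: Hba-a1, an alpha globin, had 31.3, 27.3 and 40.4 CPM in 3NC and 44.8, 80.0 and 60.7 in KD. The part of blood and vessels in these samples was not tested. Of 18 retinoic acid genes 17 had higher fitted values, with a median of 0.15. edgeR and limma voom called none and DESeq2 called Rxra, and 2 were higher and 1 lower at an unadjusted p under 0.05. Rxra, a partner of the retinoic acid receptors, had 17.4, 19.9 and 26.3 CPM in 3NC and 35.4, 36.1 and 34.6 in KD (0.74 ± 0.19, edgeR adjusted p 0.304). Aldh1a1, which makes retinoic acid, was the exception, with a log2 difference of -0.68 ± 0.29. It had 622, 1195 and 899 CPM in 3NC and 444, 754 and 495 in KD. With it, the list's summed level was not higher in KD, at 892 to 1462 CPM in 3NC and 756 to 1060 in KD.

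Germ cell lists moved little. Medians were -0.03 for undifferentiated and 0.06 for differentiating spermatogonia, -0.08 for meiotic recombination, -0.02 for pachytene and later spermatocytes, 0.01 for round and 0.11 for elongating spermatids, and no member of these lists was called by edgeR or DESeq2, while limma voom called Spo11. Among them 1 gene was higher and 1 lower at an unadjusted p under 0.05. The higher one was Pou5f1 (1.90 CPM in 3NC and 3.14 in KD), a pluripotency factor, and the lower one was Spo11, which makes the DNA breaks of meiosis (47.8 and 35.7 CPM). Elongating spermatid markers summed to 31105 to 37416 CPM in 3NC, with replicate 2 at a list mean of -0.23, and to 35885 to 38824 CPM in KD. Without 3NC replicate 2 their median was 0.01. Heat shock genes (median -0.09), ribosomal proteins (0.06), tight junctions (-0.01), peritubular and stromal cells (0.08), lymphocytes and granulocytes (-0.07), fat (0.07) and epididymis (0.35, over 5 tested genes) had no member called by edgeR or DESeq2. Limma voom called Hspa8, a heat shock protein, and Tagln, Tcf21 and Ptch1 of the stromal list. At an unadjusted p under 0.05 each of these lists held 0 to 2 genes in either direction. The 16 tested genes of aldehyde and drug metabolism had a median of -0.05, with Aldh3a1 called by edgeR and limma voom and not by DESeq2. The 15 tested genes of KIT, GDNF and niche signalling had a median of 0.07, with Kitl called.

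**Figure D5:**
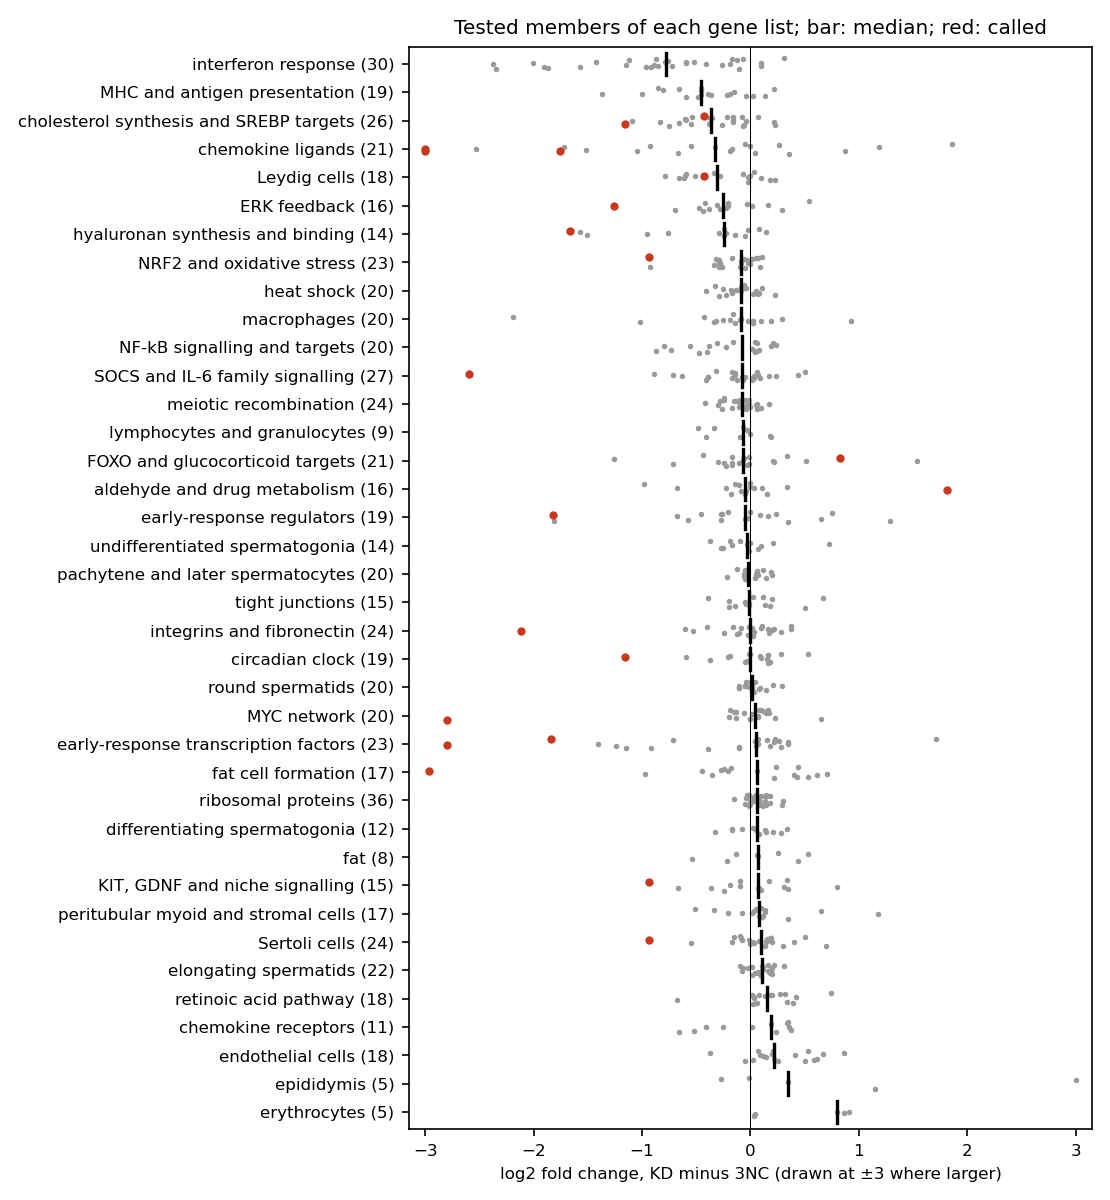
Log2 fold change (KD minus 3NC) of each tested member of 38 gene lists, with the number tested beside the name, the list's median as a bar, and called genes in red. Values beyond 3 are drawn at 3. The interferon list has the lowest median (-0.78), followed by MHC (-0.46) and cholesterol (-0.36), and the called genes lie scattered over many lists.

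For the called genes, the levels in 5NC and OV lay mostly beside those in KD. Medag had 12 ± 2.27 CPM in 3NC, against 1.54 ± 0.174 in KD, 1.39 ± 0.441 in 5NC and 1.83 ± 0.460 in OV (SD, n = 3). Insig1 had 54.1 ± 8.42 CPM in 3NC, against 24.1 ± 2.03, 23.8 ± 3.06 and 19.0 ± 1.91 in KD, 5NC and OV. Txnip had 51.8 ± 6.80 CPM in 3NC, against 92.1 ± 9.73, 107 ± 26.4 and 109 ± 4.0. For these genes 3NC was the group that stood apart, although OV received a virus meant to raise lncRNA8276. Aldh3a1 was less so, with 1.43 ± 0.121 CPM in KD, 0.677 ± 0.0875 in 5NC and 0.799 ± 0.219 in OV. What sets 3NC apart, and whether it is the knockdown or the control group that moved, cannot be told apart in this comparison.

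Set against 5NC, KD gave 8 called genes by edgeR (0.0490% of those tested), all of them higher in KD: Egr1, Btg2, Fos, Fosb, Zfp36, Ier2, Arhgap40 and Junb. These 2 comparisons share the KD libraries. The log2 difference between KD and 5NC was 0.14 for Medag, 0.57 for Myc, 0.02 for Insig1 and -0.21 for Txnip. Egr1 and Fos showed another arrangement of the groups. Egr1 had 50.5 ± 3.66 CPM in 3NC and 52.0 ± 1.58 in KD, against 4.50 ± 1.45 in 5NC and 4.32 ± 0.924 in OV. Fos had 3.81 ± 0.963 and 12.5 ± 5.07 CPM in 3NC and KD, against 0.990 ± 0.264 in 5NC and 0.590 ± 0.350 in OV. For Egr1, 3NC and KD stood together above the other 2 groups, while for Myc, with 4.67 ± 0.409 CPM in 3NC and 0.663 ± 0.298 in KD, KD stood with 5NC (0.445 ± 0.17) and OV (0.864 ± 0.205).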

How the data were processed

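RNA was sequenced from 12 mouse testis libraries, 3 in each of 4 groups. The authors deposited one table of 20718 genes. Its read counts are expected counts, that is estimated reads per gene, per the file headers and values: 88.0% are whole numbers (tolerance 1e-06), and the rest were rounded here for testing. The authors also deposited expression values whose unit, FPKM, is inferred here: over 5204 genes with more than 500 reads, values divided by reads and multiplied by the library total were constant within a gene to a median of 0.282%, although the largest deviation was 34.89%. The build was mm10, per the submitters' processing notes, and 20564 identifiers matched the RefSeq gene table. Aligner, counting program, annotation and strand handling: not given in the sources used here, so overlapping genes and near-identical copies may share reads. Another 18 columns of the table hold samples outside this series and were left unused.

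The test was edgeR 4.0.16 (R 4.3.3), with robust quasi-likelihood fits of all 12 libraries in 4 groups, TMM scaling, filterByExpr (count at least 10, total at least 15), contrast KD minus 3NC, and a Benjamini-Hochberg adjusted p under 0.05 over the 16320 genes tested. The common biological coefficient of variation was 0.13. Log2 fold changes use a prior count of 0.125 and have an approximate SE, the size of the fold change over the root of F. The floor of 3 reads equals 0.183 to 0.194 CPM per library; floors and the 95% exact intervals of read ratios cover counting error only.

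The 38 gene lists (786 entries, 778 matched) and the named genes were chosen with earlier results of these data known, so lists are described by counts and medians and not tested. Named genes are all called genes, the 6 uncalled genes of smallest p in each direction with at least 1 CPM, and up to 3 members of smallest p of each list; the text gives values for some of these only, and a few, among them 1 called gene, are not reported here. Alternatives were other scaling and filters, the 6 libraries alone, DESeq2 1.42.0, limma 3.58.1 (voom with sample weights), a replicate block, 5NC as control, and each library left out. The scripts were tested on simulated data.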

Additional observations from a re-analysis of the deposited data

How the results depend on the processing

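Scaling with DESeq2's size factors called 29 genes, testing without a filter 26 (2 higher), a filter at 1 CPM in 3 libraries 31, and the 6 libraries alone 38. DESeq2's own test called 71 genes (12 higher, 59 lower), of which 28 were shared with the 29, and limma voom 106 (22 higher, 84 lower), with all 29 shared. Leaving out each library in turn gave 10 to 22 genes, 0 to 2 of them higher and 9 to 20 lower. Deviations of KD and 3NC libraries with the same replicate number correlated at 0.008, 0.031 and 0.056, and those with different numbers at -0.052 to 0.02. Whether replicate numbers pair the libraries was not tested. With the replicate block, all 12 libraries gave 22 genes (4 higher, 18 lower) and the 6 libraries 77 (17 higher, 60 lower).

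With 5NC as control, 8 genes were called (8 higher, 0 lower), 0 of them shared, and the log2 difference changed sign for 14 of 28 called genes: Medag 0.14, Trib1 0.15, Insig1 0.02, Errfi1 0.50, Ifrd1 0.04, Myc 0.57, Nr4a3 0.17, Ier3 0.49, Socs3 0.16, Bhlhe40 0.01, Bach1 0.02, Osr1 -0.54, Txnip -0.21 and Frmd6 0.02. It also changed sign for 26 uncalled genes: Fbxo32 -0.13, D430019H16Rik -0.20, Plk3 0.01, Maff 0.37, Dusp10 0.13, Cxcr5 0.19, Cxcr4 -0.11, Ccr1 0.01, Klf15 -0.11, Tnfaip6 0.39, Hmox1 0.07, Cldn5 -0.14, Nlrc5 0.33, Rps15 -0.06, Cyp26b1 -0.25, Hmgcs1 0.18, Tcf21 -0.08, Ptch1 -0.04, Lck 0.02, Spink8 -2.64, Plin1 -0.94, Pou5f1 -0.13, Foxo1 -0.08, Kit -0.08, Sycp2 0.04 and Mybl1 0.05. Leaving out a library changed the sign for 5 uncalled genes: over the libraries left out, Psmb8 ranged from -1.35 to 0.19, Lck from -0.39 to 0.09, Cd3d from -0.32 to 0.11, Car3 from -0.92 to 0.17 and Lipe from -0.02 to 0.16. Psmb8, Car3 and Lipe turned without 3NC replicate 2. The cause of these changes was not tested.

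With 3 libraries a group, and few reads for Ccl2, Ccl7, Osr1, Aldh3a1 and Cyp3a41a, their fold changes are imprecise.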

Other observations

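Ednrb, Thbs1, Cox7b and Sptbn4, none in a list above, were among other genes of smallest p that edgeR did not call. Their levels did not overlap between the groups, but they were chosen by this same comparison, so this adds no support. Ednrb, an endothelin receptor, had 2.48 ± 0.646 CPM in 3NC and 0.833 ± 0.171 in KD (SD, n = 3, edgeR adjusted p 0.0763). Thbs1, a matrix protein that restrains vessel growth, had 6.42 ± 0.868 and 3.16 ± 0.380 CPM, and Cox7b, a subunit of cytochrome c oxidase, 14.8 ± 3.10 and 8.12 ± 1.03 CPM. Higher in KD was Sptbn4, a spectrin of nerve cell membranes (41.7 ± 4.31 CPM in 3NC and 69.9 ± 15.6 in KD). Tcf21, a factor of stromal cells from the stromal list above, had 1.09 ± 0.281 CPM in 3NC and 2.50 ± 0.0854 in KD. It was not called by edgeR (adjusted p 0.145). Tagln, a smooth muscle protein from the same list, had 15.9 and 11.1 CPM. Limma voom called both.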
